A study of Mus musculus with 8 samples.

Results

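The estradiol (E2) main effect set the 4 arrays of cells given E2 against the 4 arrays of cells not given it, with dexamethasone (Dex) as the other factor, and was tested on all 18194 genes and all 45101 probe sets of an Affymetrix mouse array. All 8 arrays of the series enter it. The cells are the 7438 line, mouse mammary cells that carry a green fluorescent glucocorticoid receptor (GFP-GR) and a red fluorescent estrogen receptor (Cherry-ER), both under a tetracycline-regulated promoter. In every group, untreated included, both receptors had been switched on by taking tetracycline away 24 hours before treatment, in medium with 10% charcoal-dextran serum. The groups were Untreated, Dex (100 nM), E2 (100 nM) and Dex + E2 (100 nM of each), with hormone for 2 hours and 2 arrays per group. E2 and Dex + E2 form the side with E2, and Untreated and Dex the side without it. Untreated cells had no hormone treatment, and the sample annotation used here names no vehicle for them. E2 minus Untreated thus sets treated against untreated cells, while Dex + E2 minus Dex sets treated groups against each other. What vehicle or handling adds to the effect without Dex was not tested and cannot be told apart from it. The comparison asks what E2 changes on average over both Dex states, and a gene can be called though it changes in only 1 of them. Titles decide the groups. For the second E2 array and the first Dex + E2 array the free-text description speaks of a ChIP of the glucocorticoid receptor, although title and treatment label both assign them to these groups, so the counts are also given without both arrays. Separate cultures are named in no label, and the p-values therefore measure the spread of these arrays alone, which can be technical. The line's receptors come from transgenes, and all arrays come from 1 line.

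Estradiol binds the estrogen receptor, a ligand-activated transcription factor that recruits coactivators at estrogen response elements and, through other factors, at further sites. Within the first hours it is known in breast and uterine cells for raising genes such as Greb1 and Pgr. Dex acts through the glucocorticoid receptor, a related protein with its own response element, whose usual early targets include Per1, Fkbp5 and Tsc22d3.

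The replicate arrays correlated at 0.996 to 0.998 over all probe sets, and no pair was identical. Dex + E2 replicate 2 stood furthest apart, with a mean correlation of 0.9951 with the other arrays, and its group had 390 genes that differed by over 0.5 log2 units between replicates, against 19 to 95 in the other groups. Levels are log2 signals from robust multi-array averaging (RMA), which compresses changes of dim probe sets and does not allow levels of different genes to be compared. As a description of signal only, of 10 luminal epithelial markers 1 (Epcam) lay above the median level of all genes, of 8 basal markers 2 (Itga6 and Krt14), of 7 milk protein genes 0 and of 15 mesenchymal markers 12. Since probe sets differ in how brightly they read, these ranks do not order the markers' RNA levels. None of these lists, and none of the immune cell, endothelial and adipocyte lists, held a gene called for the E2 main effect in limma, while 1, 2, 0, 2, 0, 0 and 0 of the luminal, basal, milk protein, mesenchymal, immune cell, endothelial and adipocyte markers had an unadjusted p under 0.05. Of all genes, 0.192% were called and 4.67% had an unadjusted p under 0.05.

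Few genes passed the threshold for the E2 main effect, and nearly all that did were higher with E2. The largest rises were in Tmem86a, an enzyme of ether lipid turnover (3.29-fold), the zinc finger gene Zfp52 (2.92-fold), Ttpa, the vitamin E transfer protein (2.79-fold), and Kif5c, a kinesin motor (2.24-fold). The 1 gene called lower was Id3, an inhibitor of basic helix-loop-helix transcription factors, at 1.78-fold lower. In all, limma called 35 of 18194 genes at a Benjamini-Hochberg adjusted p under 0.05, which is 0.192% of those tested, with 34 higher (0.187%) and 1 lower (0.0055%). Without adjustment, p was under 0.05 for 508 genes that were higher and 342 that were lower, 4.67% of the genes tested. All 4 arrays with E2 lay above all 4 without in 230 genes (1.26%) and below in 234 (1.29%). What these counts would be without any E2 effect was not computed, so they show neither rises nor falls by E2. That only Id3 was called lower does not show that lowering by E2 is absent. Between an adjusted p of 0.05 and 0.1 lay further genes, which brought the totals to 49 higher and 1 lower. Only 4 of the called genes changed at least 2-fold, and the median change of the 34 higher genes was 0.64 log2 units. With bulk RNA, a change in the share of cells that express a gene and a change per cell cannot be told apart.

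**Figure D1:**
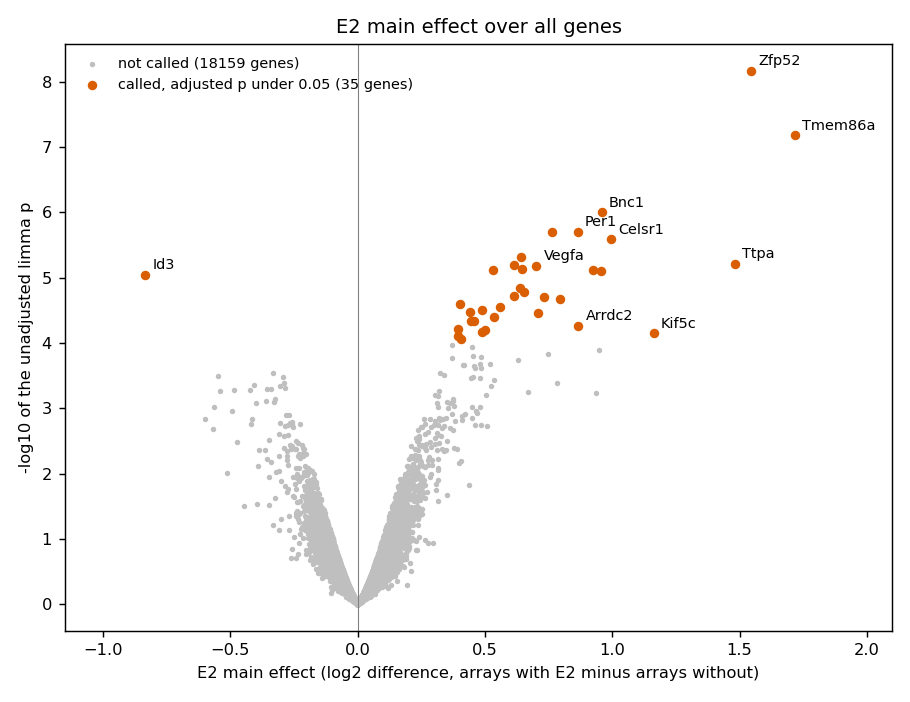
E2 main effect (x axis, log2 difference) against the negative log10 of the unadjusted limma p (y axis) for 18194 genes, each a point, with the 35 called genes in orange. The called genes lie on the right, led by Tmem86a and Zfp52, except for Id3 at -0.83.

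The count rests on single arrays. Leaving out Untreated replicate 1 or 2 brought it to 5 or 3, and leaving out Dex replicate 1 or 2 to 5 or 2. On the side with E2 it was 58 without E2 replicate 1, 13 without E2 replicate 2, 90 without Dex + E2 replicate 1 and 25 without Dex + E2 replicate 2. Without both arrays whose descriptions name a ChIP it was 56, of which 42 were higher and 14 lower. Tmem86a and Zfp52 kept the call in each of these fits. Bnc1 lost it only without Dex replicate 2, Per1 without Untreated replicate 2 or Dex replicate 2, and the other 31 genes lost it in at least 3 of the 8 fits that leave out 1 array. The direction of all 35 genes held in each other setting run. In 23 of the 34 higher genes all 4 arrays with E2 lay above all 4 without, as in 1.26% of all genes. The call rests on the same values and favours such separation, so this count is no independent support. Of the 34 higher genes, 32 had a higher signal on E2 replicate 2 than on E2 replicate 1 and 28 had a higher signal on Dex + E2 replicate 2 than on replicate 1, against 50.4% and 55.2% of all genes. What sets these replicates apart was not tested.

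The 2 genes with the firmest call lay far apart between the sides. Tmem86a had log2 signals of 7.95 and 7.95 in Untreated, 7.39 and 7.56 in Dex, 9.49 and 9.83 in E2, and 8.89 and 9.50 in Dex + E2. All 4 arrays with E2 thus lay above all 4 without it, and the steps in untreated and Dex-treated cells were close in size. Its E2 main effect was 1.72 ± 0.125 log2 units (SE from limma; Benjamini-Hochberg adjusted p = 0.000598), from 1.71 ± 0.177 without Dex and 1.72 ± 0.177 with Dex. Zfp52 had 7.37 and 7.52 in Untreated, 7.72 and 7.75 in Dex, 9.11 and 9.54 in E2, and 8.93 and 8.96 in Dex + E2. Again the sides did not overlap, though the step was smaller in Dex-treated cells. The main effect was 1.54 ± 0.0891 (adjusted p = 0.000123), from 1.88 ± 0.126 without Dex and 1.21 ± 0.126 with Dex. The difference of -0.67 between both states had an unadjusted p of 0.00352 and did not pass (adjusted p = 0.852). A second, dimmer Zfp52 probe set gave 1.25 ± 0.0701 (adjusted p = 0.000169 over all probe sets).

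Ttpa had log2 signals of 6.78 and 6.94 in Untreated, 6.95 and 6.998 in Dex, 8.15 and 8.99 in E2, and 7.92 and 8.55 in Dex + E2. Both groups with E2 had widely spaced replicates, yet the lowest of them lay above the highest array without E2. The main effect was 1.48 ± 0.174 (adjusted p = 0.0103). Kif5c had 5.07 and 5.53 in Untreated, 4.87 and 5.21 in Dex, 6.21 and 7.12 in E2, and 5.86 and 6.14 in Dex + E2. It rose by 1.16 ± 0.182 (adjusted p = 0.0394), but only on its brightest probe set: the other 3 gave 0.06, 0.11 and -0.02, and the call was lost with the mean of the probe sets. Celsr1, an atypical cadherin of planar cell polarity, had 4.29 and 4.36 in Untreated, 4.20 and 4.19 in Dex, 4.88 and 5.33 in E2, and 5.22 and 5.59 in Dex + E2. It rose by 0.99 ± 0.107 (adjusted p = 0.00785) from a dim probe set, at percentile 22.7 of mean level.

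**Figure D2:**
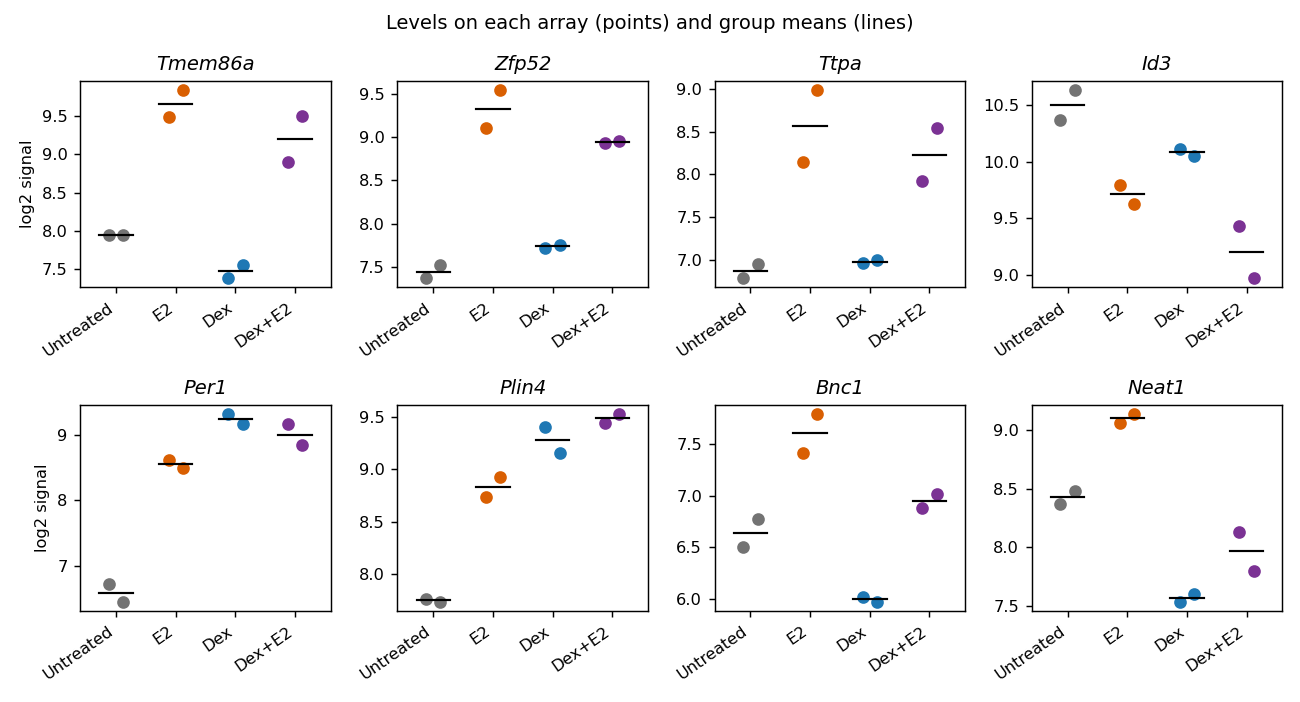
Log2 signal (y axis) on each array, as points, by group (x axis), with group means as lines, for Tmem86a, Zfp52, Ttpa, Id3, Per1, Plin4, Bnc1 and Neat1. The first 4 genes step between the sides with and without E2 in both Dex states; Per1 and Plin4 step mainly without Dex; Bnc1 and Neat1 are lowest in Dex.

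Midn, which encodes the nuclear protein midnolin, rose by 0.96 ± 0.116 (0.93 without and 0.98 with Dex; adjusted p = 0.0103), and Synpo, the actin-associated synaptopodin, by 0.92 ± 0.112 (0.93 and 0.92; adjusted p = 0.0103). The second Synpo probe set, which is dim, gave -0.06, and the average of both was 0.43. Vegfa, the vascular endothelial growth factor, had 9.08 and 9.02 in Untreated, 8.73 and 8.55 in Dex, 9.56 and 9.76 in E2, and 9.28 and 9.58 in Dex + E2. Its lowest array with E2 lay above its highest without, and it rose by 0.70 ± 0.0832 (adjusted p = 0.0103). Its second probe set moved less, by 0.25. Mcf2l and Plekhg3, genes of guanine nucleotide exchange factors, rose by 0.80 ± 0.108 and 0.61 ± 0.0821 (adjusted p = 0.0193 and 0.019). The second Plekhg3 probe set gave 0.18, and with probe sets averaged the value was 0.40. Gse1, a subunit of a histone deacetylase complex, rose by 0.64 ± 0.0826 (adjusted p = 0.0162), with 0.20 and 0.35 on its other probe sets and 0.40 with all 3 averaged, and the matrix glycoprotein gene Tnxb by 0.65 ± 0.086 (adjusted p = 0.0179). Cdr2, a cytoplasmic antigen gene, rose by 0.71 ± 0.102 (adjusted p = 0.025), with 0.45 without and 0.97 with Dex. The intervals of the difference between Dex states were wide even so. For Tmem86a the 95% interval ran from -0.54 to 0.57, for Midn from -0.46 to 0.57 and for Vegfa from -0.20 to 0.54.

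Smaller rises came next. Wfs1, which encodes the endoplasmic reticulum protein wolframin, rose by 0.56 ± 0.0784 (adjusted p = 0.0235), Parp16, a mono-ADP-ribosyltransferase, by 0.49 ± 0.0757 (0.0389) and Ern1, the stress sensor IRE1 alpha, by 0.46 ± 0.0678 (0.0302). The other 4 Ern1 probe sets lay between -0.03 and 0.06, and with the mean of the probe sets its call was lost. Trim63, a ubiquitin ligase known from muscle, rose by 0.41 ± 0.065 (adjusted p = 0.0453), the kinase anchor gene Akap2 by 0.40 ± 0.0553 (0.0216) and Micall1, of endosomal recycling, by 0.39 ± 0.0619 (0.0417). For Micall1 the step was 0.62 without and 0.17 with Dex. The Trim63 probe set is dim, at percentile 19.6. These genes, like Plekhg3 and Gse1, are among the 14 called genes outside the rule for named genes and were named after their values were seen; so were Fstl3, Dnajb4, Neat1, Klf3, Vps37b and Pim1.

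**Figure D3:**
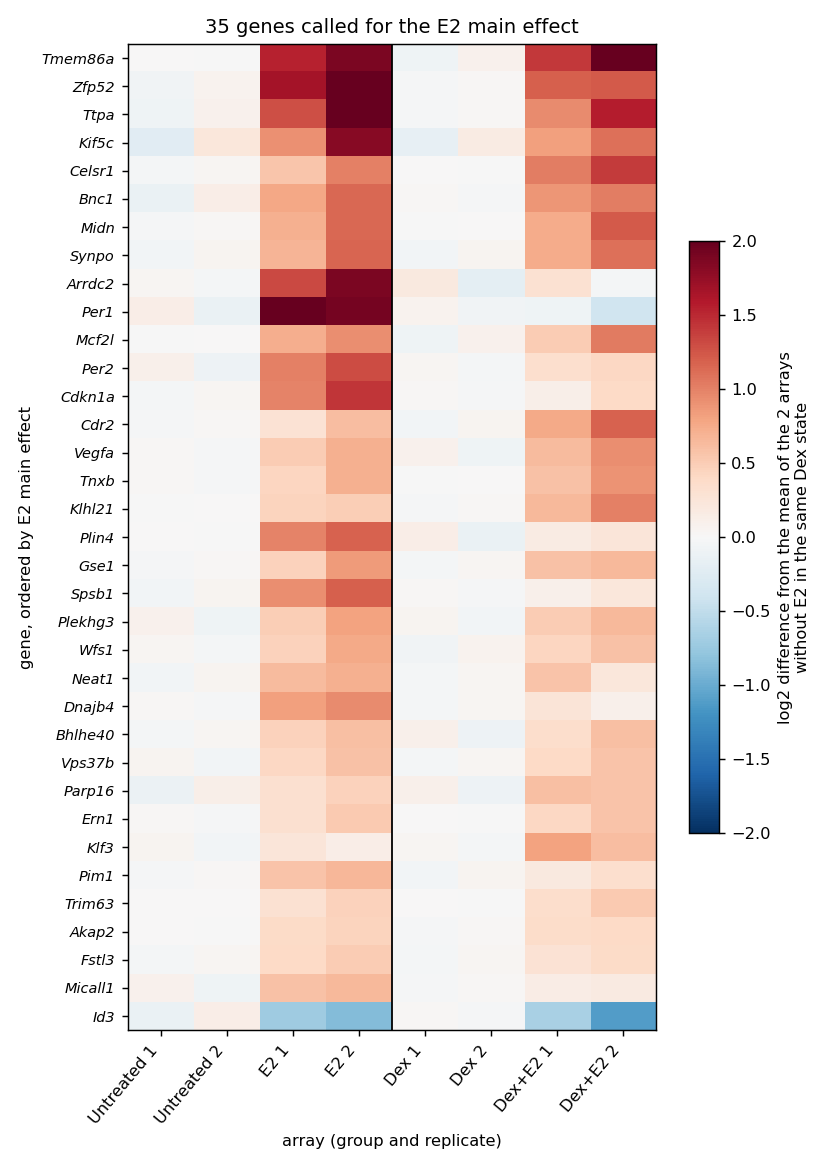
The 35 called genes (rows, ordered by E2 main effect) on the 8 arrays (columns), coloured by the log2 difference from the mean of the arrays without E2 in the same Dex state, from -2 (blue) to 2 (red). Columns with E2 are red both left and right of the line for most genes, while Per1 turns pale blue on the right and Id3 is blue on both sides.

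Some of the genes that E2 raised were lower with Dex. The Dex main effect, the mean difference with Dex over both E2 states, comes from the same 8 arrays and is given beside the E2 value for that reason only; limma called 404 genes for it, 2.22% of those tested. Bnc1, a transcription factor of epithelial cells, had 6.50 and 6.77 in Untreated, 6.02 and 5.97 in Dex, 7.42 and 7.79 in E2, and 6.88 and 7.01 in Dex + E2. Dex + E2 therefore lay just above Untreated, E2 at the top and Dex at the bottom. Its E2 main effect was 0.96 ± 0.0927 (adjusted p = 0.00597) and its Dex main effect -0.65 ± 0.0927 (adjusted p = 0.00333). Neat1, the long non-coding RNA of nuclear paraspeckles, had 8.38 and 8.49 in Untreated, 7.54 and 7.60 in Dex, 9.07 and 9.14 in E2, and 8.13 and 7.80 in Dex + E2. Here the 2 arrays with both hormones lay below Untreated, so the sides overlap across Dex states though not within them. E2 raised it by 0.53 ± 0.0779 (adjusted p = 0.0276) and the Dex main effect was -0.998 ± 0.0779 (adjusted p = 5.68e-05). Its second probe set gave -0.08 with E2, and with both averaged the value was 0.23 and the call was lost.

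Klf3, a Krüppel-like repressor, had 9.86 and 9.76 in Untreated, 8.86 and 8.79 in Dex, 10.05 and 9.95 in E2, and 9.62 and 9.44 in Dex + E2. Most of its E2 main effect of 0.45 ± 0.0661 (adjusted p = 0.0302) came from the Dex-treated cells, where the step was 0.71 against 0.19 without Dex, a difference of 0.52 that did not pass (unadjusted p = 0.00271, adjusted p = 0.852). Its other 6 probe sets ranged from -0.07 to 0.33, and with probe sets averaged the value was 0.16 and the call was lost (adjusted p = 0.687). The kinase gene Pim1 rose by 0.44 ± 0.0631 (adjusted p = 0.0250), the clock repressor gene Bhlhe40 by 0.50 ± 0.0769 (0.0367) and Vps37b, of the endosomal sorting complex, by 0.49 ± 0.0692 (0.0247). For Pim1 the call was lost with probe sets averaged, at 0.38 (adjusted p = 0.0672). The Dex main effects of Pim1, Bhlhe40 and Vps37b were -0.54, -0.39 and -0.38, that of Klf3 was -0.73 and that of Ern1 -0.31, all past the threshold.

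**Figure D4:**
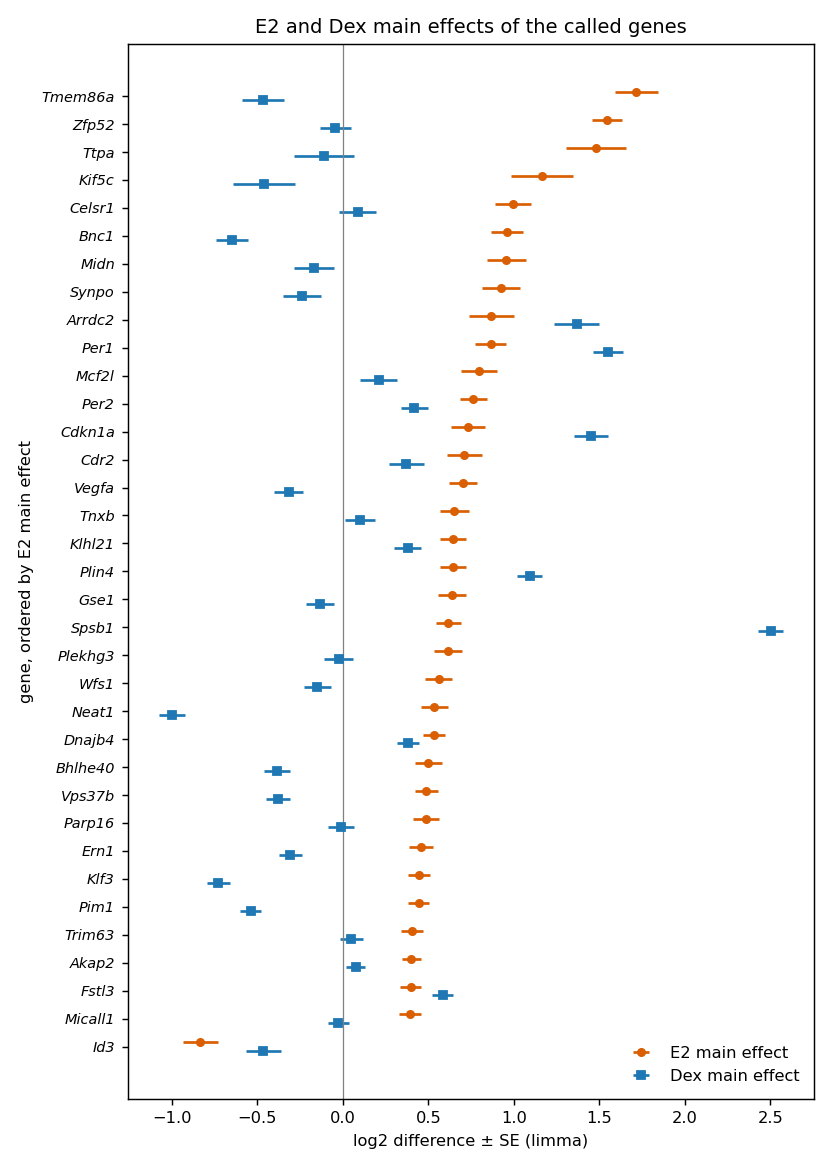
E2 main effect (orange circles) and Dex main effect (blue squares) of the 35 called genes, in log2 units (x axis) with limma standard errors as bars. Spsb1 has the largest Dex value, 2.50, and Neat1 the lowest, -0.998.

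The other E2-raised genes with a Dex main effect past the threshold were higher with both hormones. In 7 of these 9 the E2 effect was larger without Dex by at least 0.70 log2 units. The share of all genes with such a difference was not computed. These genes were picked by both main effects from the same arrays, so the count only describes them. Per1, a repressor of the circadian clock, had 6.72 and 6.45 in Untreated, 8.62 and 8.50 in E2, 9.32 and 9.17 in Dex, and 9.16 and 8.84 in Dex + E2. E2 lifted it in the absence of Dex, while in Dex-treated cells both arrays with E2 lay below both without. The E2 main effect of 0.86 ± 0.09 (adjusted p = 0.00733) is thus the mean of 1.97 ± 0.127 without Dex and -0.24 ± 0.127 with Dex. The difference of -2.21 ± 0.18 passed the threshold (adjusted p = 0.00348), and Per1 was the 1 gene of 18194 (0.0055%) that did so; without E2 replicate 1 there were 2 such genes and without Dex + E2 replicate 1 there were 20. Without Dex replicate 1 it kept its sign and did not pass (adjusted p = 0.063). In a model with both hormones as factors and no interaction, which puts this difference into the error, the main effect of Per1 did not pass (adjusted p = 0.995).

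Plin4, a lipid droplet coat protein gene, had 7.76 and 7.74 in Untreated, 8.74 and 8.93 in E2, 9.41 and 9.16 in Dex, and 9.44 and 9.53 in Dex + E2. The groups without Dex were well apart, and those with Dex only just. The E2 main effect was 0.64 ± 0.0738 (adjusted p = 0.0103), from 1.08 without and 0.20 with Dex. Arrdc2, an arrestin-domain gene, had 5.81 and 5.74 in Untreated, 7.10 and 7.66 in E2, 8.07 and 7.69 in Dex, and 8.18 and 7.83 in Dex + E2. Its arrays overlapped in Dex-treated cells, and its main effect of 0.87 ± 0.131 (adjusted p = 0.0340) is the mean of 1.61 and 0.13. Spsb1, which brings substrates to ubiquitin ligases, rose by 0.62 ± 0.0728 (adjusted p = 0.0103; 1.06 without and 0.17 with Dex), but its other 3 probe sets gave 0.17, 0.02 and 0.11, and the call was lost with the average. For Plin4, Arrdc2 and Spsb1 the difference between Dex states was -0.88, -1.48 and -0.90, with unadjusted p-values of 0.000128, 0.000203 and 9.94e-05. None passed over all genes (adjusted p = 0.291, 0.309 and 0.288).

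Per2, the partner of Per1, rose by 0.76 ± 0.0796 (adjusted p = 0.00733; 1.16 without and 0.37 with Dex), with smaller values of 0.11 and 0.30 on its other probe sets and 0.39 on the average. Cdkn1a, which encodes the cell cycle inhibitor p21, rose by 0.73 ± 0.0983 (adjusted p = 0.0190; 1.21 and 0.26), and its second probe set gave 0.78. Dnajb4, an Hsp40 co-chaperone, rose by 0.53 ± 0.0642 (adjusted p = 0.0103; 0.88 and 0.18). Fstl3, a secreted activin binder, rose by 0.40 ± 0.0606 (adjusted p = 0.0367), with close values of 0.46 and 0.34. Klhl21, a cullin adaptor, rose by 0.64 ± 0.0775 (adjusted p = 0.0103) and had the larger step in Dex-treated cells, at 0.46 without and 0.83 with Dex. Its second probe set had 0.11, from 0.19 without and 0.02 with Dex, the opposite order, and with both averaged the value was 0.37 and the call was lost (adjusted p = 0.0652). Of all 35 called genes, 23 had the larger change without Dex and 12 with Dex. At an unadjusted p under 0.05 the difference between states stood in 13 of them, smaller with Dex in 10. Over all 18194 genes the difference at that level was below 0 in 482 and above 0 in 523. For the counts of 23 and 12 no share over all genes was computed.

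**Figure D5:**
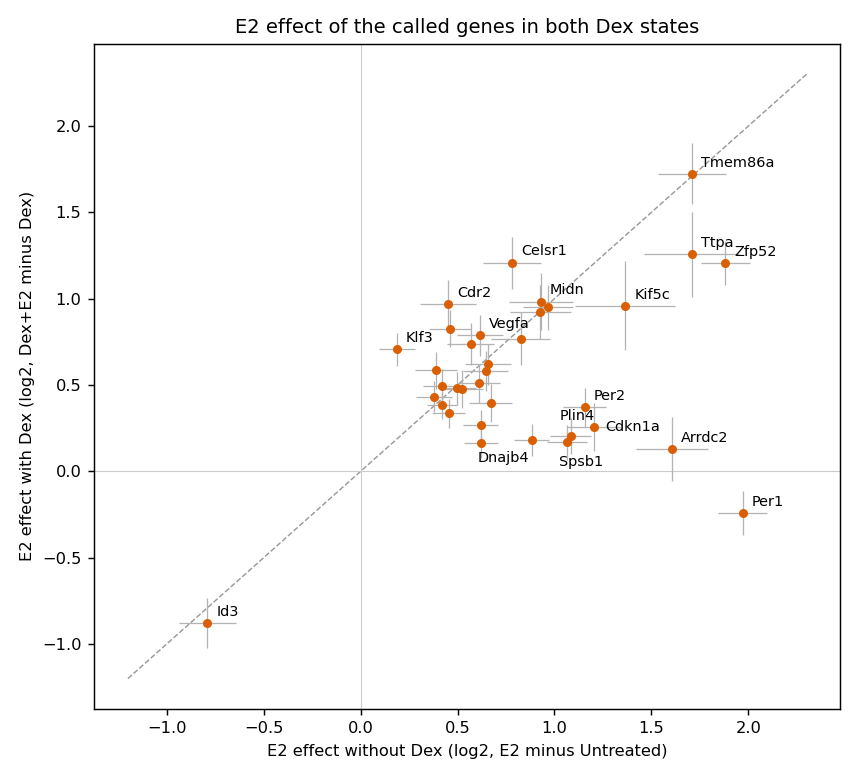
E2 effect with Dex (y axis) against E2 effect without Dex (x axis) for the 35 called genes, in log2 units, with limma standard errors as bars; the dashed line marks equal effects. Tmem86a lies on the line, Per1 furthest from it, and Arrdc2, Plin4 and Spsb1 lie near 0 on the y axis.

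The E2 effects in the 2 Dex states share no array, so the change of genes called in one can be read in the other. Their p-values are not independent, since limma uses 1 estimate of the spread per gene over all groups. A gene called partly for a small spread also has a smaller p in the other state. Without Dex limma called 19 genes (0.104%), all higher, with a median of 1.08 log2 units. In Dex-treated cells 13 of these 19 were above 0, against 49.8% of all genes, and 6 were above 0 at an unadjusted p under 0.05, against 2.58% of all genes. These 6 were Tmem86a, Zfp52, Ttpa, Bnc1, Per2 and Pim1. The median of the 19 in Dex-treated cells was 0.17, and the range ran from -0.24 (Per1) to 1.72 (Tmem86a). With Dex the call held for 2 genes (0.011%), Tmem86a and Zfp52, and both were also called without Dex. The 19 became 3 and 2 without Untreated replicates 1 and 2, 11 without either Dex array, 37 and 2 without E2 replicates 1 and 2, and 34 without either Dex + E2 array. The 2 became 0 without any 1 of the 4 arrays not given E2, 4 without either E2 array, and 81 and 1 without Dex + E2 replicates 1 and 2. Per1, Sphk1, Pdk4, Il6ra, Sh3bp2 and Errfi1 were the 6 at or below 0, at -0.24, -0.22, -0.15, -0.13, -0.07 and -0.05; all but Per1 missed the call for the main effect.

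Id3 had 10.37 and 10.63 in Untreated, 10.11 and 10.05 in Dex, 9.79 and 9.63 in E2, and 9.43 and 8.97 in Dex + E2. Every array with E2 lay below every array without, as in 1.29% of all genes, and Dex + E2 lay lowest. The call for Id3 rests on the same values, so this separation is no further support. The fall was 0.83 ± 0.103 log2 units (adjusted p = 0.0109), from -0.79 without Dex and -0.88 with Dex, beside a Dex main effect of -0.46 (adjusted p = 0.0476). The call was lost on leaving out Untreated replicate 1 (adjusted p = 0.0887) or 2 (0.107), Dex replicate 1 (0.115) or 2 (0.0929), or E2 replicate 2 (0.0565). The next lower genes, named after their values were seen, did not pass. They were Mylip, a ubiquitin ligase for the LDL receptor, at -0.33 (adjusted p = 0.102), the deubiquitinase gene Otud1 at -0.55 (0.107), the ligand gene Wnt9a at -0.29 (0.108), the scaffold gene Cnksr3 at -0.29 (0.124), the mRNA decay factor gene Zfp36l1 at -0.41 (0.130) and Mideas at -0.28 (0.137). Those named were taken, by smallest p, from genes whose E2 arrays lay below the arrays without E2 within both Dex states. That separation was thus a condition of the choice and no result. Over all genes, 2.65% lay below in both states and 2.75% lay above in both. The values given for these lower genes are those of the brightest probe set. The other Wnt9a probe set, which is dim, gave 0.11, and the other Mideas probe sets gave 0.01, -0.07 and -0.11. The second Zfp36l1 probe set gave -0.48.

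Of 35 measured estrogen targets 0 were called for the E2 main effect in limma, a count that the share of 0.192% called among all genes does not set apart from other genes. An unadjusted p under 0.05 stood in 3 that were higher and 2 that were lower, beside 2.79% and 1.88% of all genes, and their median was -0.0034, against -0.004 over all genes. Those 5 were Ccn5, a matricellular protein gene (0.37), the corepressor gene Nrip1 (0.28), the mRNA decay factor gene Zfp36l2 (0.24), Gata3, a luminal transcription factor (-0.27), and Myc (-0.35). Pgr, the progesterone receptor, had a main effect of -0.02 ± 0.0777 (adjusted p = 0.994) from a dim probe set at percentile 16.6. Greb1, a coactivator of the estrogen receptor, was at 0.09 ± 0.074 (adjusted p = 0.993) on its brightest probe set, with 5.76 and 5.91 in Untreated, 5.67 and 5.95 in Dex, 5.83 and 5.91 in E2, and 5.95 and 5.96 in Dex + E2. The groups overlap. Its other 3 probe sets, all dim, gave 0.30, 0.37 and 0.29 at unadjusted p-values of 0.00218, 0.00189 and 0.0045, and none passed over all probe sets (adjusted p = 0.472, 0.446 and 0.676).

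On their brightest probe sets the transcripts of both receptors had values near 0. Esr1, which encodes estrogen receptor alpha, was at 0.01 ± 0.112 (adjusted p = 0.995) and Nr3c1, which encodes the glucocorticoid receptor, at 0.03 ± 0.0833 (adjusted p = 0.994). The other Nr3c1 probe sets ran from -0.26 to 0.08, and none passed over all probe sets. The lowest had an unadjusted limma p of 0.0402, from -0.08 without and -0.45 with Dex. Whether the transgene RNAs reach the probe sets of Esr1 and Nr3c1 was not tested. Of 25 nuclear receptor genes and 17 coregulator genes 0 were called, with 2 higher and 1 lower in each list before adjustment, and medians of -0.0147 and -0.007.

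Of 30 glucocorticoid targets measured, 2 rose (Per1 and Cdkn1a), 0 fell and 28 did not pass, beside 0.187% of all genes higher and 0.0055% lower. Before adjustment 9 were higher and 1 lower with p under 0.05 in limma, beside 2.79% and 1.88% of all genes. The median of all 30 was -0.03. It was 0.16 without Dex and -0.15 with Dex, against -0.01 and -0.0003 over all genes. Fkbp5, an Hsp90 co-chaperone, had 10.18 and 10.16 in Untreated, 10.36 and 10.31 in E2, 11.89 and 11.70 in Dex, and 11.62 and 11.32 in Dex + E2. The E2 arrays lay above Untreated without Dex and below Dex alone with it, and the main effect was -0.08 ± 0.0782 (adjusted p = 0.993). Tsc22d3, the glucocorticoid-induced leucine zipper, had 0.97 without and -0.56 with Dex and a main effect of 0.21 ± 0.165 (adjusted p = 0.993). For Sgk1, a serum- and glucocorticoid-regulated kinase, they were 0.46, -0.21 and 0.13 ± 0.0958 (adjusted p = 0.993). Their differences between Dex states were -0.49, -1.54 and -0.67, at adjusted p-values of 0.852, 0.577 and 0.852. The number of called members of this list was 0 without Untreated replicate 2, without Dex replicate 2 and in the model with no interaction, and 1 to 6 otherwise.

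Clock genes held 3 rises among 19 (Per1, Per2 and Bhlhe40), beside 0.187% of all genes, with 0 falls and a median of 0.04. The clock activator gene Arntl, at 0.35, did not pass (adjusted p = 0.200). The 3 were reduced to 0 without Untreated replicate 2 or Dex replicate 2, to 1 (Per1) without Dex replicate 1 and to 1 (Bhlhe40) in the model with no interaction. Lipid droplet and fatty acid genes also held 3 rises among 18, Tmem86a, Ttpa and Plin4, with a median of -0.02. Tmem86a and Ttpa had been put on that list with their E2 values known. All lists, the clock list included, were chosen with earlier results of these data known, so no list count is independent evidence. The lipid count was 1 without either Untreated array or Dex replicate 2. Arrdc2 was the 1 of 21 FoxO and energy brake genes to rise, and Pdk4, which slows pyruvate oxidation, did not pass at 0.45 (adjusted p = 0.248; 1.05 without and -0.15 with Dex). Cdkn1a was the 1 of 17 genes of the list of CDK inhibitors and p53 targets. Both of these counts fell to 0 without any 1 of the 4 arrays not given E2 and in the model with no interaction, and that of Arrdc2 also without E2 replicate 2.

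Of 20 immediate early genes 0 were called in limma, where 0.192% of all genes were. Before adjustment 8 were lower and 2 higher with p under 0.05, beside 1.88% of all genes lower and 2.79% higher. Their median was -0.08. Among the 8 were the zinc finger genes Klf10 (-0.49) and Klf6 (-0.48), Jun (-0.42) and Ier3 (-0.35), whose adjusted p-values ran from 0.137 to 0.390. Without Dex + E2 replicate 1 this list had 3 called lower. Inflammatory genes had 0 of 26 called and 5 lower before adjustment, and its median was -0.09. They were the pattern-recognition gene Ptx3 (-0.57), Ptgs2, which encodes cyclooxygenase 2 (-0.49), Cxcl3 (-0.44), Cxcl1 (-0.22) and Csf2 (-0.18). This list too had 3 called lower without Dex + E2 replicate 1. MAPK feedback regulators had 0 of 15 called, 3 lower and 1 higher before adjustment (Dusp6 -0.42, Dusp14 -0.27, Spry2 -0.25 and Errfi1 0.45). In the TGF-beta/SRF/YAP list of 19, Id3 fell and 18 did not pass, among them Ccn1 at -0.40 and Tgfb2 at 0.48. EGF ligands and receptors (0 of 11 called, 2 lower unadjusted), stress genes (0 of 18, 4 higher and 1 lower), cell cycle genes (0 of 21, 0 unadjusted) and sterol and SREBP genes (0 of 13, 0 unadjusted) had medians of -0.05, 0.03, -0.05 and 0.04.

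Testing each probe set on its own added genes that the brightest probe set had missed. Of 45101 probe sets limma called 24 (0.0532%), 22 higher and 2 lower, all with 1 gene symbol. They name 23 genes, of which 20 are called at the gene level and 3 are not. The largest was Gpr146, an orphan receptor gene, on a probe set with 4.80 and 4.50 in Untreated, 4.71 and 4.44 in Dex, 6.21 and 7.02 in E2, and 6.13 and 7.04 in Dex + E2. The sides are far apart, and the change of 1.99 ± 0.208 (adjusted p = 0.0136; 1.97 without and 2.01 with Dex) exceeds that of every gene in the gene-level test. Its brightest probe set gave 0.94 ± 0.191 (adjusted p = 0.236) and its other 2 gave 0.53 and 0.21. Zmiz1, a transcriptional coregulator gene, was higher by 0.86 ± 0.0984 on 1 of 5 probe sets (adjusted p = 0.0195), with 0.41 on the brightest. Ptgs2 fell on the dimmer of its probe sets, which had 6.29 and 6.29 in Untreated, 5.87 and 5.82 in Dex, 5.50 and 5.28 in E2, and 5.41 and 5.33 in Dex + E2. It fell by 0.69 ± 0.068 (adjusted p = 0.0101), and the brighter, at -0.49 ± 0.0992, did not pass (adjusted p = 0.236). Each of these 3 calls was lost without any 1 of the 4 arrays not given E2, and the count was 3, 4, 3 and 3 without Untreated replicates 1 and 2 and Dex replicates 1 and 2. It was 58 and 11 without E2 replicates 1 and 2, 69 and 20 without Dex + E2 replicates 1 and 2, and 59 without both arrays whose descriptions name a ChIP.

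Promoter sequence of the called genes was read from RefSeq (GRCm38.p6), as 250 bases before and 50 after each annotated start; 26 of the 35 genes have 39 such windows. The 5 shown were chosen after the values were seen: the 2 rises that kept the call throughout, Per1, whose effect depended on Dex, Kif5c, a rise with 2 of the motifs searched, and Id3, the 1 fall. Capitals mark matches, on either strand, to the palindromic estrogen response element (GGTCA and its reverse complement TGACC with any 3 bases between), the nuclear receptor hexamer AGGTCA, the glucocorticoid receptor core ACANNNTGT, the E-box CACGTG and the cAMP response element TGACGTCA. The first motif holds a copy of the hexamer where an A precedes it or a T follows it.
Tmem86a, chr7:47050390-47050689, plus strand: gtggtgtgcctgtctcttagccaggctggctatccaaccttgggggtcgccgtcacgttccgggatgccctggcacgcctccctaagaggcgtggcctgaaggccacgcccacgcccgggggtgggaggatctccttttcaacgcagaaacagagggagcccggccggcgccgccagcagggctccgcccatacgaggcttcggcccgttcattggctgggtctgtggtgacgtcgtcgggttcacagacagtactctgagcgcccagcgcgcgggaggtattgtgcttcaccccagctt
Zfp52, chr17:21535289-21535588, plus strand: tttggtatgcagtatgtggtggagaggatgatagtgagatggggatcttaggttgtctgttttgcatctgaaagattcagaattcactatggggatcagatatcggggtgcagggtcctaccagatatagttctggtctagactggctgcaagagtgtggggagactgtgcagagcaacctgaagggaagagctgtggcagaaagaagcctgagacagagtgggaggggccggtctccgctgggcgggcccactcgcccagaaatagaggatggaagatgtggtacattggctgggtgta
Per1, chr11:69098699-69098998, plus strand: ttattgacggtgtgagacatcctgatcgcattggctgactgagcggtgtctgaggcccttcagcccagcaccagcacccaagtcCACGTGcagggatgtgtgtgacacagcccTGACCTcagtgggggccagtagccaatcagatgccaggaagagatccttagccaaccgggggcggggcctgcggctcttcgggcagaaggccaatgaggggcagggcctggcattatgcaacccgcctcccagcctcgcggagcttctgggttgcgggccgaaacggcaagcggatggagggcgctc
Kif5c, chr2:49619036-49619335, plus strand: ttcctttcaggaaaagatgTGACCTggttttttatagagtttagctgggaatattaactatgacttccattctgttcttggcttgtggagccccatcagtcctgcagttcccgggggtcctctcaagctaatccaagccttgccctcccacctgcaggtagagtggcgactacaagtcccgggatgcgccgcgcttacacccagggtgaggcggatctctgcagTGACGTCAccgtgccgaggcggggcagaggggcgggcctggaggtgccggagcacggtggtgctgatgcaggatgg
Id3, chr4:136143572-136143871, plus strand: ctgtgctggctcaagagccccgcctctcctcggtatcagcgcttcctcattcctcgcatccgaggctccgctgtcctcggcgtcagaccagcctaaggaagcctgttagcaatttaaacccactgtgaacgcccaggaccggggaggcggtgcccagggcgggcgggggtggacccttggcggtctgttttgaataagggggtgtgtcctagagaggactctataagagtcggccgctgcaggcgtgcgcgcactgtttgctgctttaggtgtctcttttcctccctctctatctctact
The windows of Tmem86a, Zfp52 and Id3 hold none of these letters. The Per1 window shown has an E-box 166 bases and a hexamer 137 bases before the start, while the other Per1 window (chr11:69099902-69100201) holds no match. That of Kif5c has a hexamer 231 bases and a cAMP response element 26 bases before its start. Of the 26 genes, 0 have the full estrogen response element, as against 0.074% of 27025 genes. The hexamer is present in 8 (30.8%, against 18.1% of all genes), namely Fstl3, Gse1, Kif5c, Midn, Parp16, Per1, Spsb1 and Tnxb. The glucocorticoid receptor core is in 3 (11.5%, against 7.9%), the E-box in 3 (11.5%, against 8.09%) and the cAMP response element in 1 (3.85%, against 2.03%). The 26 called genes have 39 windows and the 27025 genes have 32851, so shares by gene also depend on windows per gene. By window the hexamer is in 8 of 39, against 16.3% of all windows. The glucocorticoid receptor core is in 3 of 39 (against 6.85%), the E-box in 3 (7.15%) and the cAMP response element in 1 (1.79%). A match is a description of letters in a short window and shows no binding.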

How the data were processed

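Gene expression was measured on 8 Affymetrix mouse arrays, 2 in each of 4 groups taken from the sample titles. The authors deposited log2 values for 45101 probe sets, made by RMA in Affymetrix Expression Console per the submitters' processing notes, with no version given; RMA subtracts background, equalises array distributions and combines probes. Of the probe sets, 34958 have 1 gene symbol in the platform annotation, 932 have several and 9211 are not listed; where a gene had several, the brightest on average stood for it, which gave 18194 genes, 9012 of them with more than 1 probe set. Limma (version 3.58.1 in R 4.3.3) was fitted to 4 group means (4 residual and 6.2 prior degrees of freedom), and the E2 main effect is the mean of the E2 effects with and without Dex. P-values were adjusted by Benjamini-Hochberg over all genes, and a gene was called at an adjusted p under 0.05; the same fit was run on every probe set. Errors after ± are limma's standard errors. The median standard error was 0.0682, and precision is limited by the number of arrays. The fit was tested on simulated data.

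Named genes are up to 16 higher and 10 lower called genes by size that do not overlap within either Dex state, up to 4 called genes per list, the 4 called genes with the smallest p for the difference between Dex states, those called for it, and Greb1, Pgr, Esr1, Nr3c1, Per1, Fkbp5, Tsc22d3 and Sgk1. The comparison, the lists and the rule were chosen with earlier results of these data known. Lists are described by counts and medians only. Listed genes without such a probe set are not analysed here.

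Alternatives were averaged probe sets per gene, every probe set, the lower 40% of genes left out, a trended and robust prior, array weights, median centring, replicate number as a block, a model with no interaction, a 1.5-fold minimum, and leaving out single arrays or both arrays whose descriptions name a ChIP. The alternatives for every probe set and for Gpr146, Zmiz1 and Ptgs2 were chosen after seeing the data.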

Additional observations from a re-analysis of the deposited data

Results flagged for a closer look

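Per1 stood out because its E2 effect differed between the Dex states by the test of the difference itself: the effect with Dex minus that without was -2.21 log2 units (limma, Benjamini-Hochberg adjusted p = 0.00348). In untreated cells both E2 arrays lay above both arrays without E2, and in Dex-treated cells both lay below, so its mean E2 effect of 0.86 describes neither state. The difference held its sign in each of 16 other settings, from -2.43 to -2.05, and passed in 15 of them.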

How the results depend on the processing

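All 35 called genes kept their direction in each alternative run, and 2 of them, Tmem86a and Zfp52, also kept the call in each. The cause of the changes in count below was not tested. With a trended and robust prior the counts of called genes were 63 for the E2 main effect, 35 for the E2 effect without Dex, 9 for the E2 effect with Dex and 4 for the difference between states, and 74 for every probe set. With no interaction term the main effect had 21, and with a 1.5-fold minimum 22. Array weights and median centring each gave 4 genes for the effect with Dex. Without both arrays whose descriptions name a ChIP, the main effect had 56 genes, the effect with Dex 125, the difference 8 and every probe set 59. Leaving out 1 array at a time gave 2 to 90 genes for the main effect, 2 to 37 without Dex, 0 to 81 with Dex, 0 to 20 for the difference, 239 to 840 for the Dex main effect and 3 to 69 probe sets. The count of 81 came without Dex + E2 replicate 1, where that group is 1 array assumed to vary like the others. The Dex main effect had 617 calls over all probe sets and 156 with a 1.5-fold minimum.

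With the replicate number as a block the main effect had 31 genes, the effect without Dex 17, the effect with Dex 3 and the difference 1. No label says that the numbers pair the arrays, and the deviations of same-numbered arrays correlated between -0.26 and 0.35 over pairs of groups.

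Values near 0 changed sign. With probe sets averaged per gene, Pgr was 0.0158, Esr1 -0.0194 and Nr3c1 -0.0436; without both arrays whose descriptions name a ChIP they were 0.0826, -0.0339 and -0.0774. With 1 array left out Pgr ran from -0.0878 to 0.0551, Esr1 from -0.1099 to 0.1387, Nr3c1 from -0.0643 to 0.1243 and Tsc22d3 from -0.0134 to 0.4277. None of these passed the threshold in any setting.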

Other observations

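Between an adjusted p of 0.05 and 0.1 lay 15 genes, all higher with E2 and named here after their values were seen. Metrnl, a secreted meteorin-like protein, was 0.95 ± 0.159 higher (limma, Benjamini-Hochberg adjusted p = 0.0616; 1.05 without and 0.85 with Dex) and Eppk1, the cytolinker epiplakin, 0.75 ± 0.128 (0.0690; 0.81 and 0.69). Jdp2, an AP-1 repressor, was at 0.37 (adjusted p = 0.0549), Nab2, a corepressor of EGR factors, at 0.45 (0.0708), Shb, an adaptor protein, at 0.49 (0.0717) and the kinase gene Snrk at 0.48 (0.0842), each within 0.3 log2 units of the same change in both Dex states. In Errfi1, an inhibitor of the EGF receptor, the values were 0.95 without and -0.05 with Dex, in the sphingosine kinase gene Sphk1 1.27 and -0.22, in the mRNA decay factor gene Zfp36 1.00 and 0.26, and in the Krüppel-like factor gene Klf9 0.88 and 0.09. None of these genes passed the threshold for the main effect.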
